A study of Mus musculus with 44 samples.

Results

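Among the 13 libraries from H+/K+ATPase beta subunit knockout mice given vehicle (KO/PEG), Tff2 mRNA ranged from 1217 to 27729.8 counts per 1000000 (CPM) of the total count, and the 7 libraries with high Tff2 were compared with the 5 with low Tff2 across all other genes. These 12 libraries, of 44 in the series, were chosen by the measured value of Tff2: a library was high at 9000 CPM or more and low at 4500 CPM or less. Library KO_53 lay between these limits, at 6019.8 CPM, and was left out. The nearest libraries inside the limits were KO_31 in the low group, at 3973 CPM, and KO_126 in the high group, at 11594 CPM.

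All libraries came from samples of the gastric corpus of female mice on a BalbC background, killed at 13 months of age. The KO mice lacked Atp4b, which encodes the beta subunit of the gastric proton pump, in every cell, and the comparison used only those given polyethylene glycol (PEG), the vehicle. The 11 KO mice given the gastrin receptor antagonist netazepide (KO/NTZ) by injection in the same vehicle from a young age, and 11 libraries from wild-type mice given PEG (WT/PEG), were used for reference. Each KO/PEG library is named here by the start of its label, as in KO_31, which holds the number of an animal. What the number stands for is not given in the sources used here, and neither is which of the flow cells a library was read on. The number 110 occurs in both KO groups, and 2 of the WT/PEG libraries share a number. The study's methods describe fewer KO/PEG mice than there are libraries with that label, so some libraries may share a mouse, and the p-values below measure only the spread between these libraries, which may be partly technical.

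Trefoil factor 2 is a small secreted peptide of gastric mucous neck cells, stored and released together with the gland mucin MUC6. It is also the peptide that gave its older name to spasmolytic polypeptide-expressing metaplasia (SPEM), a mucous cell type that appears in the corpus when acid-secreting parietal cells are lost or do not work. Gland mucous cells make a heavily glycosylated product, so they rely on chaperones of the endoplasmic reticulum (ER), on enzymes that add sugars in the Golgi apparatus and on transcription factors of secretory cells such as SPDEF.

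Tff2 (chromosome 17 of GRCm38, from 31141049 to 31144282, minus strand) had 1217 CPM of the total count in KO_46, 2518 in KO_144, 2669.9 in KO_45, 2710.2 in KO_52 and 3973 in KO_31. In the high group it had 11594 CPM in KO_126, 12236 in KO_137, 16193 in KO_143, 17319 in KO_32, 24905 in KO_109, 27376 in KO_110 and 27729.8 in KO_111. These values chose the groups and are given without a test. The 11 WT/PEG libraries had between 541 and 1089 CPM of the total count, below every KO/PEG library on this scale. Per effective library size from TMM normalization, the scale used further below, KO_46 had 873.5 CPM. That lay within the WT/PEG range of 601.9 to 1332.3 CPM. The 11 KO/NTZ libraries had between 7537 and 26802 CPM of the total count. No KO/NTZ library was as low as the low KO/PEG group.

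**Figure D1:**
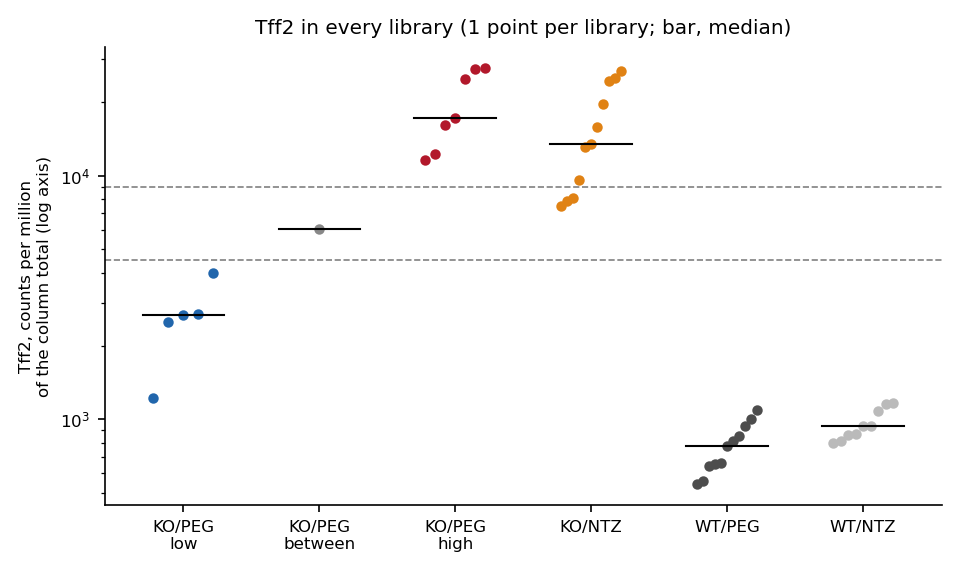
Tff2 in CPM of the column total (log axis) for every library of the low, between and high KO/PEG groups and of KO/NTZ, WT/PEG and WT/NTZ, with the median of each as a bar. The dashed lines are the limits of 4500 and 9000 CPM, and the 5 low libraries sit between 1217 and 3973 CPM against 11594 to 27729.8 CPM in the 7 high libraries.

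Atp4b itself had between 2.30 and 17.2 CPM in the low group and between 3.53 and 11.1 CPM in the high group, against 2911 to 5780.0 CPM in WT/PEG, so each of the 12 libraries carried the knockout by its own transcript. The corpus markers Atp4a, the alpha subunit of the proton pump, and Pgc, the precursor of pepsin C, were present in all 12, with minima of 1920.0 and 1788 CPM. From here on CPM are counts per 1000000 of the effective library size, from TMM normalization over all 44 libraries with Tff2 left out.

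Some properties of the libraries moved with the groups. The length slope, which is the change in a gene's log2 level relative to the mean of all libraries per doubling of transcript length, was -0.42 in KO_109, -0.41 in KO_110, -0.33 in KO_111 and -0.37 in KO_126 of the high group, and lay between -0.17 and 0.25 in the low group. The other 3 high libraries, KO_32, KO_137 and KO_143, had slopes of -0.01, 0.00 and -0.15, within the range of the low group. Mitochondrially encoded genes took 2.37 to 7.01% of the counts in the high group and 3.82 to 14.4% in the low group, with the highest share in KO_46. The total count was 6274018 to 21945124 in the high group and 10564371 to 20256490 in the low group. Of the 7 high libraries 6 came from animals numbered 100 or above, and of the 5 low libraries 1 did (KO_144). The differences of the named genes are therefore also given among the libraries with similar length slopes (3 high, 5 low) and from fits with the length slope or the log2 mitochondrial share as a covariate.

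**Figure D2:**
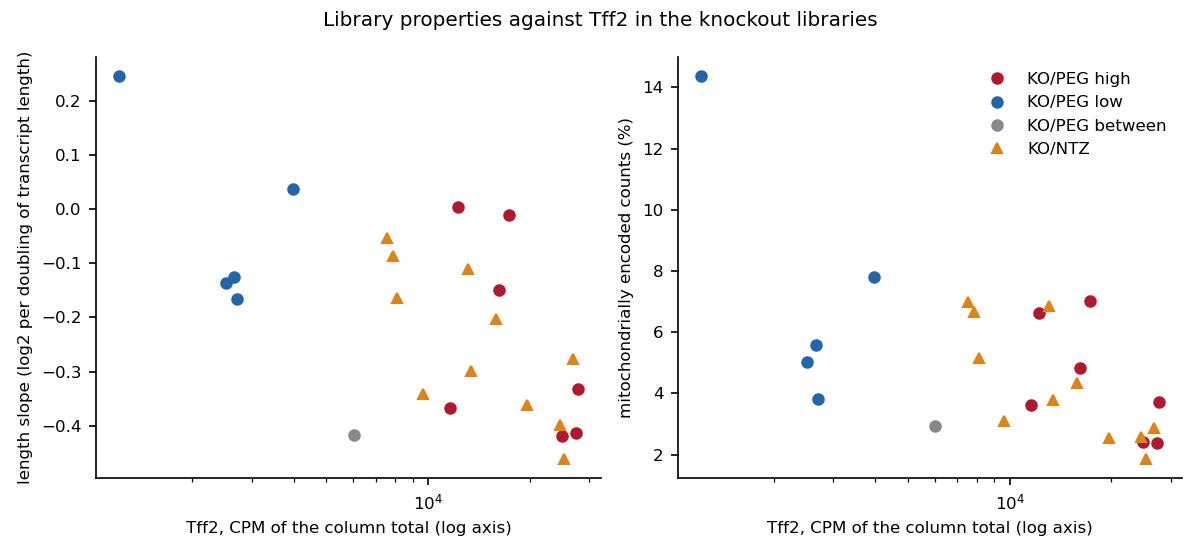
Length slope (left, log2 per doubling of transcript length) and share of mitochondrially encoded counts (right, %) against Tff2 in CPM of the column total (log axis), with 1 point for each KO/PEG library (circles, by group) and each KO/NTZ library (triangles). Of the 7 high libraries 4 have a length slope of -0.33 or lower, and KO_46 has the highest mitochondrial share, 14.4%.

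Of 14300 genes with enough counts, 98 (0.685%) were at least 2-fold higher in the high group with every high library above every low library, and 19 (0.133%) were at least 2-fold lower with every high library below every low library. Without a limit on the fold change, 271 genes (1.9%) were separated and higher and 0.776% of the genes separated and lower. Since the groups were formed from a measured value, log2 fold changes and their standard errors (SE) are given from edgeR without p-values, and separation is a description. All 98 higher genes code for proteins, as did 13688 of the 14300 genes tested. Their log2 fold changes lay between 1.002 and 5.32 with a median of 1.62, against a median of -0.03 over all 14300 genes. Among the libraries with similar length slopes the median difference of the 98 genes was 1.31 on the log2 scale, and 0.01 over all genes. Differences among these libraries are between mean log2 levels, a measure other than edgeR's fold change, unless edgeR is named. More RNA per cell and more cells of a type cannot be told apart in these samples of whole tissue.

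The genes with the largest differences included the gland mucin and genes of its making and secretion. Muc6, the mucin stored with Tff2, had 1197, 181.0, 448, 517 and 818 CPM in KO_31, KO_45, KO_46, KO_52 and KO_144 of the low group, and from 2258 through a median of 4679 to 7709 CPM in the high group. The lowest high library was thus above the highest low one, and the log2 fold change was 2.97 (SE 0.46, n = 7 and 5). In WT/PEG Muc6 had 63.3 to 332 CPM, so that all low libraries but KO_45 were above the WT range. Agr2, a protein disulfide isomerase of mucus-secreting cells, had 551, 515, 259.7, 594 and 831 CPM in the same order of low libraries and 2147 to 5026 CPM, with a median of 2968, in the high group. Its log2 fold change was 2.58 (SE 0.33). Spdef, a transcription factor of goblet and other mucous cells, had 77.2, 64.8, 57.1, 46.1 and 112 CPM in the low libraries and 159 to 844 CPM, with a median of 296, in the high ones (log2 fold change 2.35, SE 0.44). For Spdef the highest low library, KO_144, came nearest to the high group. The difference in mean log2 level was 1.59 among libraries with similar length slopes, against 2.16 over all 12 libraries. Kdelr3, a receptor that returns proteins from the Golgi apparatus to the ER, had 14.8, 11.03, 7.40, 12.03 and 16.2 CPM in the low libraries and 27.6 to 80.5 CPM, with a median of 47.9, in the high group (log2 fold change 2.10, SE 0.27).

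The water channel Aqp5 had 17.4, 14.8, 13.3, 14.1 and 9.74 CPM in the low libraries and from 51.3 through a median of 126.1 to 223 CPM in the high group, a log2 fold change of 3.11 (SE 0.36). In WT/PEG it was at or below 1.63 CPM in every library, so both KO/PEG groups were above the WT range. Klk1, a tissue kallikrein, had 194, 49.6, 18.3, 63.9 and 57.2 CPM in the low libraries and 320.0 to 955 CPM, with a median of 616, in the high group (log2 fold change 3.01, SE 0.53). Klk1 belongs to a family of very similar mouse genes, so the division of reads among them is uncertain. Col11a2, a chain of type XI collagen, had 2.31 to 4.62 CPM in the low libraries and 12.9 to 48.2 CPM in the high ones, with the largest log2 fold change among genes of at least 10 CPM, 3.19 (SE 0.32).

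The other genes with the largest differences and a mean of at least 10 CPM were of mixed function. Cgref1, a secreted calcium-binding protein, had 16.7 to 74.2 CPM in the low and 186 to 594 CPM in the high group (log2 fold change 2.89, SE 0.39). Adra2a, an adrenergic receptor, had 4.45 to 8.80 CPM against 22.5 to 89.6 CPM, and Glrb, the beta subunit of the glycine receptor, 7.58 to 14.1 CPM against 23.8 to 77.2 CPM. For H2-Q10, a class I histocompatibility gene with near-identical relatives, the ranges were 4.48 to 8.29 and 15.9 to 50.8 CPM. Gm45837 had 20.4 to 31.96 against 63.9 to 197 CPM, but it overlaps Pde2a and its reads may belong to either. The fold changes of these genes were smallest for Gm45837, at a log2 value of 2.05 (SE 0.27).

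Among the genes below 10 CPM on average, larger folds were reached from lower counts, and these were chosen after their values were seen. Bcan, a brain-type proteoglycan, had at most 0.35 CPM in the low group and at least 1.91 CPM in the high group (log2 fold change 5.32, SE 0.66). Gcgr, the glucagon receptor, was at or below 0.89 CPM in the low and at or above 1.08 CPM in the high group (log2 fold change 4.01, SE 0.60). Wfdc3, a small protein with a whey acidic protein domain, and Mt3, a metallothionein, followed with log2 fold changes of 3.52 and 3.19. At 10 CPM or more on average, the 98 also held the secretory peptide Spink4 (352 CPM at most in the low and 412 CPM at least in the high group), the fatty acid receptor Ffar2 (9.89 and 17.1 CPM) and the guanylate cyclase receptor Gucy2c (6.66 and 11.5 CPM). The mast cell tryptases Tpsab1 and Tpsb2, related genes for which the division of reads was not tested, had log2 fold changes of 1.32 and 1.10. Spink4, Ffar2, Gucy2c and the tryptases were also chosen after their values were seen.

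The 3 lower genes with a mean of at least 10 CPM had smaller differences. Gk, glycerol kinase, had 52.7, 57.6, 69.7, 57.0 and 49.96 CPM in KO_31, KO_45, KO_46, KO_52 and KO_144 and 11.4 to 45.7 CPM in the high group, with a median of 21.88. Its log2 fold change was -1.13 (SE 0.26), and the highest high library, KO_137, lay just under the low group. Rnase4, a secreted ribonuclease whose locus overlaps that of angiogenin, had 147.1 to 237 CPM in the low and 38.7 to 131 CPM in the high group (log2 fold change -1.11, SE 0.24). For Mocs1, an enzyme of molybdenum cofactor synthesis, the ranges were 57.6 to 100.2 and 23.1 to 41.0 CPM (log2 fold change -1.09, SE 0.17). Among the libraries with similar length slopes the differences of Gk, Rnase4 and Mocs1 were -0.67, -0.87 and -0.91 on the log2 scale.

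The size of these differences moved little for some genes and more for others when the properties of the libraries were taken into account. Muc6 had a log2 fold change of 2.97, which was 3.01 with the length slope and 2.99 with the mitochondrial share in the fit, and Col11a2 had 3.19 in all 3 fits. Agr2 went from 2.58 to 2.21 and 2.24, Aqp5 from 3.11 to 2.73 and 2.77, and Klk1 from 3.01 to 2.80 in both fits. The difference of Spdef fell more, from 2.35 to 1.85 and 1.99, as did that of Gk, from -1.13 to -0.77 and -0.84. Among the libraries with similar length slopes the difference in mean log2 level was 3.15 for Muc6, 3.05 for Klk1, 3.03 for Col11a2, 2.75 for Cgref1, 2.50 for Adra2a, 2.45 for Aqp5 and 2.37 for Agr2. It was 2.05 for H2-Q10, 1.70 for Gm45837, 1.67 for Kdelr3 and 1.36 for Glrb. Over all 12 libraries this measure was 3.13 for Muc6, 3.29 for Klk1, 2.16 for Spdef and 1.96 for Glrb. EdgeR's log2 fold change among the libraries with similar length slopes was 2.93 for Muc6, 2.75 for Klk1, 1.57 for Spdef and 1.35 for Glrb. Klk1, Spdef and Glrb were thus lower in these libraries by both measures. All 15 named genes kept their direction in these fits. Among the libraries with similar length slopes this was fixed in advance, because the genes were chosen as separated over all 12 libraries.

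**Figure D3:**
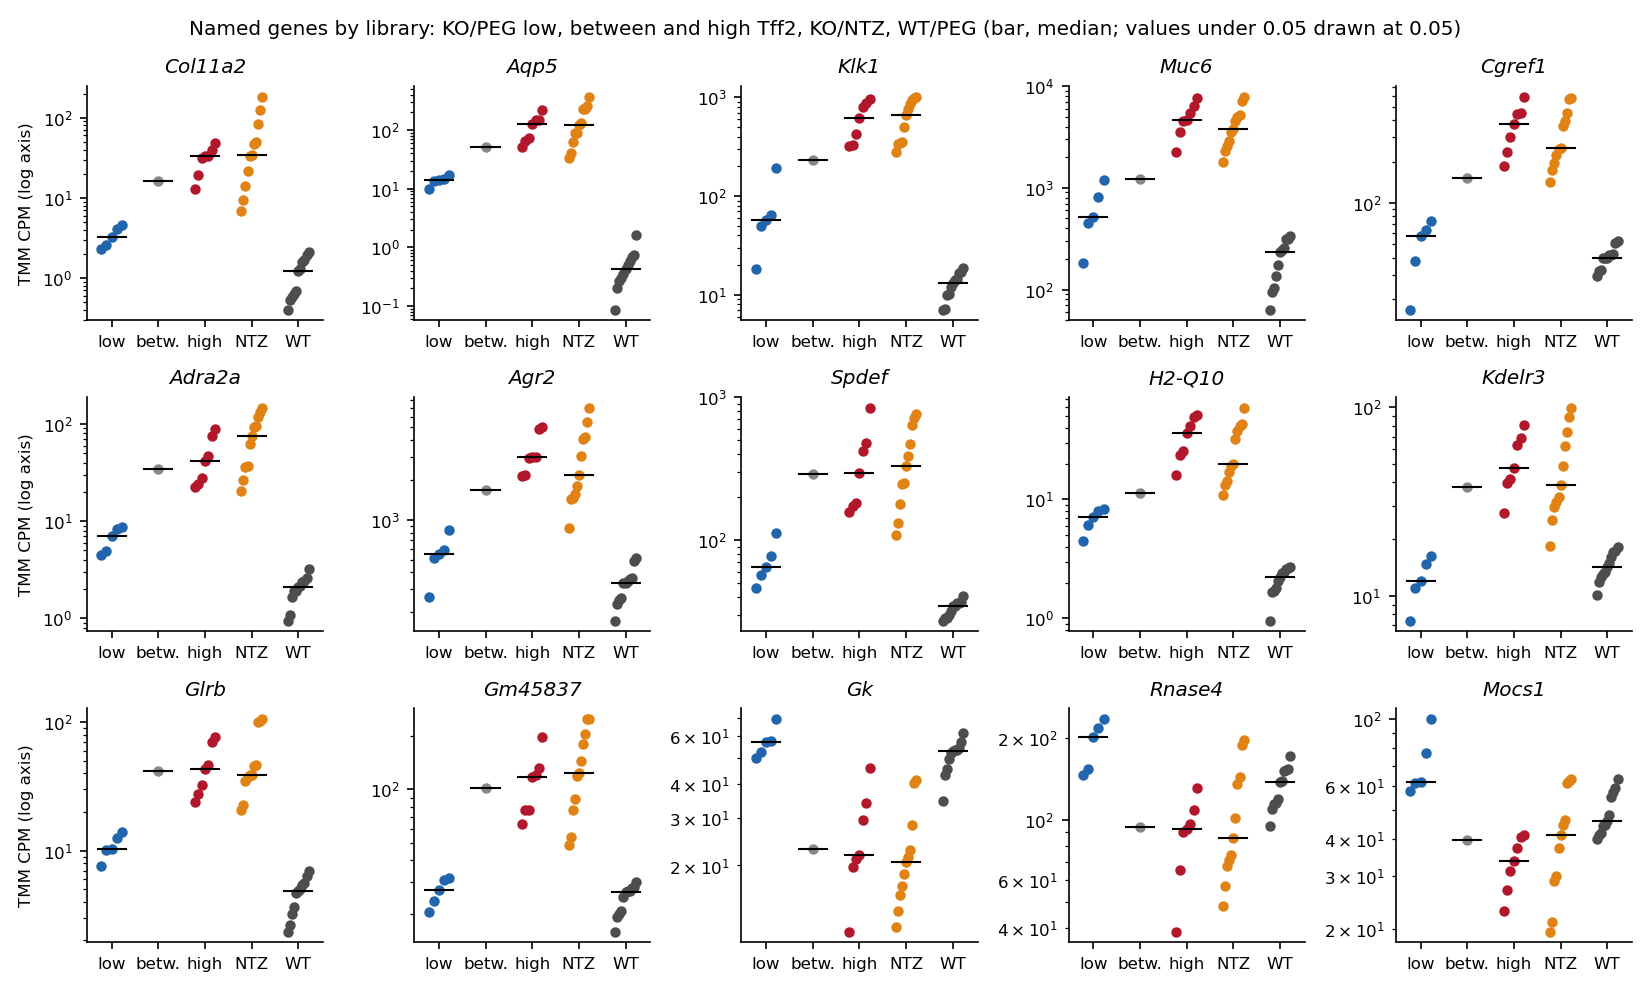
TMM-normalized CPM (log axis) of the 12 higher and 3 lower named genes, with 1 point for each library of the low, between and high KO/PEG groups, KO/NTZ and WT/PEG, and the median as a bar. No low library overlaps a high one for these genes, which is how they were chosen, and library KO_53 lies between the medians of the low and high groups for Muc6, at 1225 CPM, and near the high median for Spdef, at 289 CPM.

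The sequence before the transcription start is shown for 4 of these genes, since they moved together across libraries. For each, the 250 bases before the RefSeq start site of GRCm38.p6 are given 5′ to 3′ on the strand of the gene, with any match to ACGTG or TGACGTG on either strand in capitals. TGACGTG is the core of elements bound by factors of the ER stress and secretory response, and ACGTG is part of it. The windows are chr7:141655394-141655643 (minus strand) for Muc6, chr12:35992675-35992924 (plus strand) for Agr2, chr17:27728952-27729201 (minus strand) for Spdef and chr15:79516158-79516407 (plus strand) for Kdelr3.
Muc6: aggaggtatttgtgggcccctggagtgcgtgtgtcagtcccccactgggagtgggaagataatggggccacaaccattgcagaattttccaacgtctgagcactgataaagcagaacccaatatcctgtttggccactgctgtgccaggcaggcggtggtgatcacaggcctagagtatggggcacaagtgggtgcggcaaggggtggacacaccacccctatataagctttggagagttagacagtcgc
Agr2: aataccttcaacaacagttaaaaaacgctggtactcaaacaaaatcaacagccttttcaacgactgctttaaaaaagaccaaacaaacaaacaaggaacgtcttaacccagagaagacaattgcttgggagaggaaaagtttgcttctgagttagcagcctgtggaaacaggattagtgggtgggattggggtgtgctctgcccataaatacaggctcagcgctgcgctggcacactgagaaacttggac
Spdef: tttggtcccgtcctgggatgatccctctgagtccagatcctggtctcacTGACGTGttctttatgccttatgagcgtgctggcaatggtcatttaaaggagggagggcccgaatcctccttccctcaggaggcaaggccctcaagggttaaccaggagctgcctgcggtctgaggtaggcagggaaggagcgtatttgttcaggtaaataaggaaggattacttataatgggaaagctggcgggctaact
Kdelr3: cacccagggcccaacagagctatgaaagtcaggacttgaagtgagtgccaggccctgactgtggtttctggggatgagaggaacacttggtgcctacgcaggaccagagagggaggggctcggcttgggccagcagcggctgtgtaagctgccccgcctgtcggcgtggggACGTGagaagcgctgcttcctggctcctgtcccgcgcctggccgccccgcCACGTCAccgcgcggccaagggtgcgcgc
Muc6 and Agr2 held no match in these windows. Spdef held 1, whose ACGTG begins 199 bases before the start site, and Kdelr3 held 2 matches to ACGTG, at 79 and 29 bases, the second of them the longer motif read on the other strand. RefSeq windows were found for 72 of the 98 higher genes, with 92 start sites in all. ACGTG was in 25 of the 92 windows (27.2%) and in 16.6% of all 32851 windows of the same length, and TGACGTG in 4 (4.35%) and in 1.65% of all. Other motifs searched on both strands gave 46.7% against 28.3% for CCACG, 26.1% against 17.2% for CACCTG and 18.5% against 22.6% for GATAA, and the ER stress response element (ERSE) was in 0 of the 92 and in 0.113% of all. TGACGTG overlaps ACGTG, and ERSE contains CCACG. The motifs were chosen after the values of the genes were seen. The median GC content was 57.8% in the windows of the higher genes and 52.4% in all windows, so motifs with CG may differ by base composition alone, which was not tested.

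By list, genes of the secretory machinery held most of the separated members. In the list of ER folding and the unfolded protein response, 15 of 16 tested genes had a positive log2 fold change and 8 of 16 were separated and higher at any fold, against 1.9% of all genes. The median was 0.57, against -0.03 over all genes, and 0.49 among libraries with similar length slopes. Calr, a calcium-binding chaperone, had 680.2 to 948 CPM in the low and 1251 to 1841 CPM in the high group. Hsp90b1, the ER form of HSP90, had 519 to 609.5 against 783 to 1027 CPM, Pdia6, a disulfide isomerase, 238 to 375 against 482 to 632.5 CPM, and Manf, a secreted ER stress protein, 93.8 to 170.6 against 175 to 445 CPM. Manf was the member with a fold change of 2 or more. Xbp1 and Dnajb9, also of this list, overlapped between the groups, with log2 fold changes of 0.24 and -0.35. The summed level of the list was 3505 to 4483 CPM in the low group, 5597 to 7069 CPM in the high group and 5499 CPM in library KO_53.

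In the list of secretory mucin glycosylation, 4 of 15 tested genes were separated and at least 2-fold higher, against 0.685% of all genes: Agr2, Spdef, Galnt6 and Creb3l1. Galnt6, which adds the first sugar of mucin-type chains, had at most 97.8 CPM in the low and at least 157 CPM in the high group (log2 fold change 1.79, SE 0.29). Creb3l1, a transcription factor of secretory cells that is held in the ER membrane, had 70.0 to 133 against 153 to 331 CPM (log2 fold change 1.35, SE 0.23). Of these 4, Galnt6 is the enzyme that adds sugars. A4gnt, which caps the sugars of gland mucin, overlapped slightly between the groups, with 36.4 to 141 CPM in the low and 130.1 to 365 CPM in the high group. B3galt5 and Galnt7, other glycosyltransferases, had log2 fold changes of -1.15 and -0.87. Of the 15 genes 8 had a positive log2 fold change, and the median of the list was 0.03.

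In the list of SPEM and mucous neck cell markers, 2 of the 15 genes other than Tff2 were separated and at least 2-fold higher, Muc6 and Aqp5, against 0.685% of all genes. In this list 10 of 15 genes had a positive log2 fold change, against 6794 of all 14300. The median of the list was 0.49, and 0.34 with similar length slopes. Clu, clusterin, another marker of SPEM, had 3476 to 12736 CPM in the low and 10383 to 22804 CPM in the high group and overlapped. Gkn3 and Wfdc2, a gastrokine of neck cells and a SPEM marker, had log2 fold changes of 1.44 and 1.26 with overlapping groups. Dmbt1, a mucosal scavenger protein, had a log2 fold change of -1.35, and Cd44, a surface receptor found on SPEM, one of -0.54. Together the list without Tff2 summed to 16014 to 32513 CPM in the low and 28383 to 52253 CPM in the high group. In WT/PEG the same sum was 87246 to 204600 CPM. It includes Pgc, which is also in the chief cell list, so it is no measure of SPEM alone.

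The levels of the other gastric lineages overlapped between the groups. No tested marker of surface, chief, parietal or endocrine cells was separated at 2-fold or more, which is near the share over all genes (0.685% higher and 0.133% lower) and so says little about these lineages. Of 13 surface mucous cell genes, 2 had a positive log2 fold change and 0 were separated, with a median of -0.31. Their sum ran from 18217 to 116710.0 CPM in the low group, which enclosed the range of 30767 to 64650.0 CPM in the high group. Muc5ac, the mucin of surface cells, had 321 to 4430.2 CPM in the low and 136 to 1526 CPM in the high group. Chief cell genes had a median of 0.67, and 0.80 among libraries with similar length slopes. Of these 8 genes 7 had a positive log2 fold change, against 6794 of all 14300, and 0 were separated. Their sum overlapped widely, at 3205 to 38099 CPM in the low and 5519 to 64965 CPM in the high group. Parietal cell genes (0 of 12 separated, median -0.14) and endocrine genes (0 of 13 separated, median -0.04) overlapped too. Chga, chromogranin A of the endocrine cells, had 1172 to 1972 CPM in the low and 683 to 2326 CPM in the high group.

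The antrum also holds mucous glands with Tff2 and Muc6, so its markers were read separately. Gast, gastrin, the hormone of antral G cells, was at 0 in all 7 high libraries and at most 0.95 CPM in the low ones. Pdx1, a transcription factor of the antrum and duodenum, had 0.82 to 10.4 CPM in the low and 0.13 to 5.49 CPM in the high group. Of the 6 genes of the antral list that were tested, Aqp5 and Muc6 were separated and at least 2-fold higher, against 0.685% of all genes. Both are also in the neck cell list. The median of the antral list was 0.30, and -0.02 among libraries with similar length slopes. The summed level of the antral list was 1476 to 3003 CPM in the low and 6002 to 12088 CPM in the high group, and it includes Muc6 and Gkn3, which are counted in the neck cell list as well. Squamous forestomach genes varied by library. Their sum was 162 to 892 CPM in the low and 164.5 to 1751 CPM in the high group. At 2-fold or more 0 of 6 tested genes were separated, near the share over all genes (0.685% higher and 0.133% lower).

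In all, 26 of the 30 lists, with 314 tested members over all lists, had no separated member with a fold change of 2 or more. Since 0.685% of all genes were separated and higher and 0.133% separated and lower, a list without such a member is no result about that list. Cell cycle genes had a median of 0.12 (0 of 20 separated at that fold) and macrophage genes -0.03 (0 of 14). Plasma and B cell genes had a median of 0.09 (0 of 12), and their sum was 2078 to 9819.5 CPM in the low and 2143 to 8396.5 CPM in the high group. Fibroblast and collagen genes had a median of -0.45, and -0.01 among libraries with similar length slopes. Mitochondrially encoded genes had a median of -0.67, and -0.10 with similar length slopes. Haemoglobin and other blood genes had a median of -1.85, which rests on KO_46 and KO_52: Hbb-bs had 1870.3 and 1582 CPM there and 53.2 to 107 CPM in the other 3 low libraries, against 69.4 to 409 CPM in the high group.

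**Figure D4:**
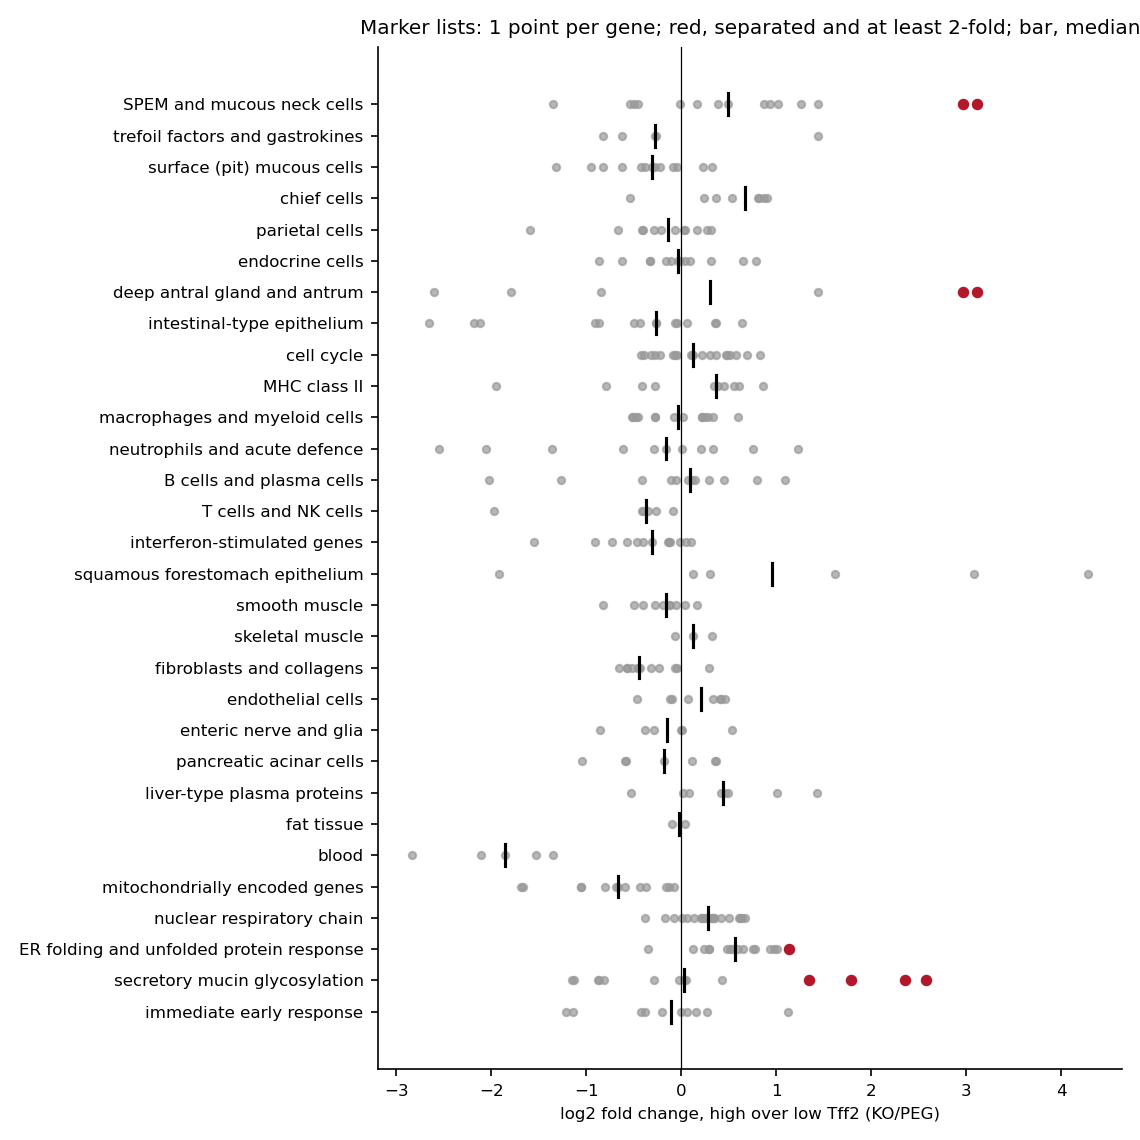
Log2 fold change of high over low Tff2 (KO/PEG) for the tested members of each of 30 marker lists, with 1 point per gene, the median as a bar, and genes that were separated with a fold change of 2 or more in red. Red points are found in 4 lists: SPEM and mucous neck cells, deep antral gland and antrum, ER folding, and secretory mucin glycosylation.

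Transcript length bore on the whole comparison. Genes with transcripts of up to 1000 bases had a median log2 fold change of 0.38 (1546 genes) and those over 5000 bases one of -0.26 (2157 genes), and among libraries with similar length slopes these medians were 0.03 and -0.01. The 98 higher genes had a median length of 1889.5 bases, against 2650.4 over all genes tested, and 5 of them, Muc6 included, had transcripts over 5000 bases. When each library's length slope entered the fit, 107 genes were at least 2-fold higher and separated after adjustment, and 70 of them were among the 98. The adjustment kept the group difference in the model and lowered the spread within groups, which makes separation easier at a given difference. The same holds for the fits with the mitochondrial share or the number range below. With only the libraries of similar length slope, 124 genes were at least 2-fold higher and separated, 74 of them among the 98. There separation is easier because fewer libraries are compared.

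The KO/NTZ libraries took no part in choosing groups or genes, so the same relation was tested there, as the slope of each gene on log2 Tff2 over 11 libraries (edgeR's quasi-likelihood test, Benjamini-Hochberg adjustment over all genes, threshold 0.05). Of 14284 genes, 2035 (14.2%) had a positive and 1863 (13.0%) a negative slope past the threshold. Of the 98 genes higher in the high KO/PEG group, 86 (87.8%) had a positive slope past the threshold, all 98 slopes were positive, and their median was 0.68 log2 units per doubling of Tff2, against -0.03 over all genes. Of the 19 lower genes 18 were tested, 18 had a negative slope, and 8 passed.

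These calls depend on few libraries and on the properties of the libraries. In KO/NTZ the 4 libraries with most Tff2 had mitochondrial shares of 1.85 to 2.86% and length slopes of -0.46 to -0.28, against 3.10 to 6.999% and -0.34 to -0.05 in the other 7. Their total counts were 6065084 in KO_29, 6371760 in KO_30, 7635744 in KO_37 and 12438174 in KO_23. The other 7 had 10792104 to 20654692. Depth was not used as a covariate. With the log2 mitochondrial share as a covariate edgeR called 0 genes (512 of 14569 at an unadjusted p under 0.05), and with the length slope as a covariate also 0 (858 of 14960). The direction was still positive for 92 of the 98 genes (93.9%, median slope 0.39) with the first and for 94 of 98 (95.9%, median 0.46) with the second, against 48.9% and 48.3% of all genes. Without KO_29 of KO/NTZ 5 genes had a positive slope past the threshold, 3 of them among the 98, and without KO_25 the counts were 15 and 9. Without KO_27 or KO_30 they were 859 and 1108, with 64 among the 98 each time. Without KO_29 and KO_30 of KO/NTZ, the farthest from the median of Tff2, the test made 4 positive calls, 2 among the 98, and 95 of 97 slopes were positive.

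Single genes showed how the relation stood. In KO/NTZ Tff2 ran from 6851 through a median of 12917 to 30251 CPM, and Muc6 from 1806 through 3795 to 7862 CPM. The slope of Muc6 was 0.63 per doubling of Tff2 (SE 0.17, adjusted p = 0.0202 by edgeR). Pearson's r between log2 values was 0.75 (permutation p = 0.0102, adjusted over 14284 genes 0.0549) and Spearman's rho 0.72 (permutation p = 0.0162, adjusted 0.0649), and r was 0.84 without the 2 farthest libraries. Its slope was 0.97 with the mitochondrial share and 0.94 with the length slope as a covariate, past the threshold with neither. Agr2 had a slope of 0.74 (SE 0.22, adjusted p = 0.0300 from the same edgeR test), and slopes of 0.27 and 0.41 with these covariates, past the threshold with neither. Its rho was 0.81 (permutation p = 0.00402, adjusted 0.0393) and its r 0.74 (permutation p = 0.01195, adjusted 0.0582), or 0.55 without the 2 farthest libraries.

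Aqp5 had a slope of 1.09 (SE 0.20, adjusted p = 0.0138 from the edgeR test), which was 0.54 with the mitochondrial share and 0.67 with the length slope as a covariate, past the threshold with neither. It had a rho of 0.85 (permutation p = 0.0015, adjusted 0.0365) and an r of 0.87 (permutation p = 0.00086, adjusted 0.0453), or 0.81 without the 2 farthest libraries. Cgref1 was the second of all genes by p, with a slope of 0.81 (SE 0.09, adjusted p = 0.00298 from the edgeR test) and 0.86 and 0.93 with the mitochondrial and length covariates. It had a rho of 0.95 (permutation p = 5e-05, adjusted 0.0281) and an r of 0.95 (permutation p = 2e-05, adjusted 0.0357), or 0.94 without the 2 farthest libraries, and was the 1 named gene whose slope was past the threshold without them. The first by p was Wfdc3 (slope 1.53, SE 0.16, adjusted p = 0.00284 from the edgeR test), also among the 98. Of the 8 genes that came next by p, Ggt1, Rtn4r, Tmed3 and Vkorc1 were among the 98, Wfdc15b, Slc16a3 and Pprc1 had positive slopes and log2 fold changes of 1.33, 0.75 and 0.33 in KO/PEG, and Pln, phospholamban of muscle, had a negative slope of -0.82.

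**Figure D5:**
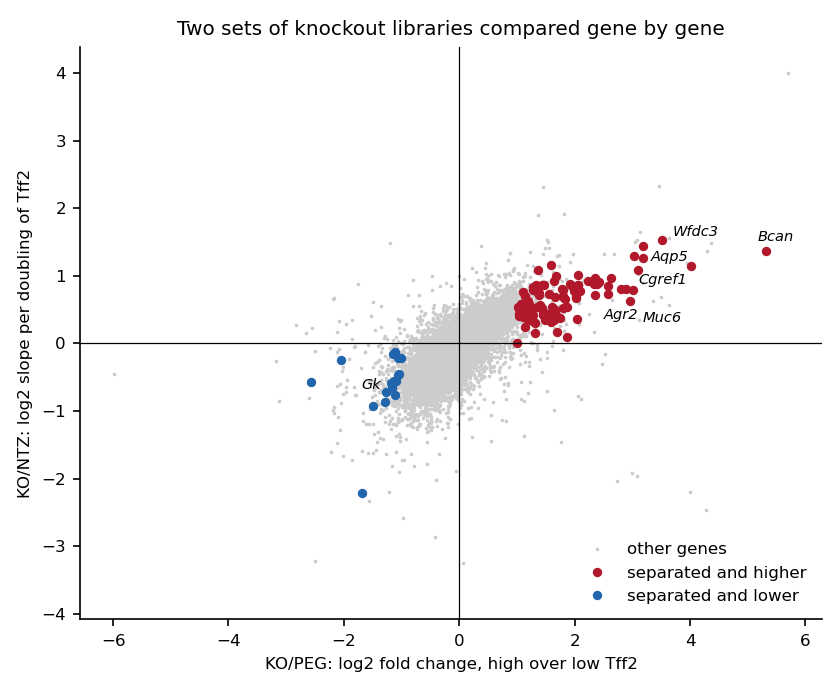
Each point is 1 gene, with its log2 fold change of high over low Tff2 in KO/PEG on the x axis and its log2 slope per doubling of Tff2 in KO/NTZ on the y axis. All 98 separated and higher genes (red) have positive slopes and all 18 separated and lower genes tested (blue) negative ones, without a covariate.

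By list, 8 of the 15 SPEM and mucous neck cell genes had a positive slope past the threshold in KO/NTZ and 0 a negative one, with a median slope of 0.48, against 14.2% positive and 13.0% negative calls over all genes. Of the ER folding genes 5 of 16 passed with a positive slope (median 0.26), and of the mucin glycosylation genes 4 of 15 with a positive and 3 of 15 with a negative one (median 0.08). The surface mucous cell genes had 2 of 13 positive and 4 of 13 negative, and the fibroblast and collagen genes 0 of 12 positive and 8 of 12 negative. Among the mitochondrially encoded genes 10 of 13 had a negative slope past the threshold. The positive calls of the surface mucous cell genes and the negative calls of the mucin glycosylation genes lay near the shares over all genes. All of these calls were lost with either covariate.

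Because 6 of the 7 high libraries carried numbers of 100 or above, KO/PEG libraries numbered 100 or above (7) were also compared with those below (6) by the label alone. EdgeR's quasi-likelihood test called 0 of 14228 genes (0.0%), with 1776 at an unadjusted p under 0.05 and a lowest adjusted p of 0.331. DESeq2 called 39 genes higher and 40 lower (0.274% and 0.281%), limma called 0, and a fit of all 44 libraries called 0.780% higher and 0.569% lower. This comparison shares its libraries with that of high and low Tff2. Muc6 had a log2 fold change of 1.32 by number (SE 0.72, adjusted p = 0.428 by edgeR), against 2.97 by Tff2. Agr2 had 1.45 (SE 0.56, adjusted p = 0.384 from the same test), against 2.58. Within the animals numbered 100 or above (6 high, 1 low) Muc6 differed by 2.42 and Agr2 by 1.92 on the log2 scale, and within those below 100 (1 high, 4 low) by 3.76 and 2.70, each with a lone library on 1 side. With the number range as a covariate the log2 fold changes by Tff2 were 2.97 for Muc6, 2.31 for Agr2 and 3.34 for Aqp5, and 74 of the 98 higher and 7 of the 19 lower genes were found again. With log2 Tff2 as a covariate the median log2 fold change of the 98 genes by number was -0.08, against 0.83 without it. The 98 genes were chosen for separation by Tff2 among KO/PEG libraries, so this fall was largely built in. It cannot weigh the number against Tff2. These fits rest on 1 high library numbered below 100 and 1 low library numbered above.

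Library KO_53, between the limits, had Muc6 at 1225 CPM, just above the highest low library, Agr2 at 1685 CPM and Aqp5 at 51.9 CPM, at the lower edge of the high group. For 74 of the 98 higher genes (75.5%) it lay nearer to the median of the high group, and so it did for 73.2% of all genes tested. Its length slope, -0.42, was that of the high libraries with the lowest slopes. In WT/PEG, the median of 89 of the 98 genes (90.8%) was nearer to the low than to the high KO/PEG median, as it was for 69.5% of all genes tested.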

How the data were processed

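The authors quantified the reads on GRCm38 transcripts with kallisto 0.42.4 and deposited estimated counts of 94080 transcripts in 44 libraries, without normalization. These expected counts were summed per gene of GENCODE vM21 (92372 transcripts paired, and the 1708 others held 0.329 to 1.3% of a library) and rounded. Total counts were 6065084 to 21945124 per library. Counts without molecular identifiers are not independent molecules.

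TMM sizes were computed once on all libraries, with Tff2 left out. Genes were filtered with filterByExpr (minimum count 10, total 15) and modelled in R 4.3.3 by edgeR 4.0.16. High and low groups were formed from Tff2, so no p-value is given for them. SEs are the log2 fold change over the root of F. The KO/NTZ slope and the animal number were tested. Correlations used 100000 permutations, two-sided.

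Members, gene lists and tests were chosen with earlier results of these data known. Named genes were protein-coding, separated, at least 2-fold different and at 10 CPM or more on average, up to 12 per direction, with examples from the lists and the 10 smallest p of each test. Some genes outside this rule were added after their values were seen. The alternatives with the length slope were added after seeing the data, and alternatives also included DESeq2 1.42.0 and limma 3.58.1. The scripts were tested on simulated data.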

Additional observations from a re-analysis of the deposited data

Results flagged for a closer look

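Klk1 in the low Tff2 group was far from the others in 1 library: KO_31 had 194 CPM, while the other 4 low libraries had 18.3 to 63.9 CPM. Animal 31 also had the most Tff2 of the low group, 3973 CPM of the total count. This was the 1 value of 38 group checks that passed Dixon's limit, which chance alone passes in about 1 of 20. The cause was not tested.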

How the results depend on the processing

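Without 1 library in turn, 0.645 to 0.924% of the genes tested were separated and higher in KO/PEG and 0.112 to 0.427% separated and lower. The lower genes, 19 of 14300, numbered 34 without KO_31, 41 without KO_32, 31 without KO_45 or KO_46, 61 without KO_137, 29 without KO_143 and 54 without KO_144, where fewer libraries have to separate. The shares of higher and lower genes were 0.225% (32 genes) and 0.0211% (3 genes) with KO_53 in the low group, 2.99% and 1.97% within animals numbered 100 or above, 2.41% and 1.99% within those below 100, 1.37% and 0.427% at a fold change of 1.5, and 1.90% and 0.776% with no fold limit. The share of lower genes was 0.164% (36 genes) without a filter on low counts, 0.0559% (8 genes) with the mitochondrial share and 0.0839% (12 genes) with the length slope in the fit, 0.271% (40 genes) in libraries with similar length slopes and 0.447% of single transcripts. With the mitochondrial share in the fit, 71 of the 98 and 5 of the 19 genes were found again.

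For the KO/NTZ slope, leaving out 1 library gave 5 to 2479 positive and 1 to 2660.0 negative calls, with 3 to 89 of the 98 and 0 to 10 of the 19 genes. The negative calls were 2 without KO_25, 471 without KO_27, 1 without KO_29, 630.0 without KO_30 and 1150.0 without KO_37. Calls were 0 and 0 with either covariate, with 0 of the 98 and 0 of the 19, and 4 and 1 without the 2 farthest libraries, with 2 of the 98 and 0 of the 19. With KO_110 left out they were 1941 and 1679. The cause was not tested.

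For the animal number, DESeq2 called 0.274% and 0.281%, with 5 of the 98 genes, and the fit of all 44 libraries 0.780% and 0.569%, with 13 of the 98 and 1 of the 19. Every fit without 1 library called 0. None of the 15 named genes changed sign under an alternative in the KO/PEG or KO/NTZ comparison. In KO/PEG this was fixed in advance for fits on fewer of the same libraries, because the genes were chosen as separated. Of the 98 KO/NTZ slopes, 92 stayed positive with the mitochondrial share and 94 with the length slope in the fit. No paired analysis was possible because the KO groups share a single number, 110.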

Other observations

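Of the 15 tested genes of the intestinal-type list, 4 had a positive log2 fold change. The median of that list was -0.27, and -0.47 among libraries with similar length slopes. Some epithelial defence genes of the intestinal-type list varied widely within the low Tff2 group. Reg3b, an antimicrobial lectin, had 6.11 to 153 CPM in the low libraries and 3.76 to 19.4 CPM in the high ones, and its relative Reg3g had 10.2 to 259 CPM and 11.03 to 31.6 CPM. Muc13, a membrane mucin, had 11.3 to 106 CPM in the low and 6.91 to 20.4 CPM in the high group. The groups overlapped for all 3 genes, whose log2 fold changes were -2.66, -2.18 and -2.11. The goblet and intestinal genes Cdx1, Cdx2 and Muc2 had too few counts to be tested. Among the interferon-stimulated genes 2 of 13 had a positive log2 fold change, against 6794 of all 14300 genes. The median of this list was -0.31, and 0.09 among libraries with similar length slopes. Mx1 was separated and lower, as 0.776% of all genes were. It had 3.74 to 5.38 CPM in the low and 1.38 to 3.56 CPM in the high group, a fold change under 2. Over all genes, the first principal component of the 13 KO/PEG libraries held 45.97% of the variance. The high libraries KO_32, KO_137 and KO_143 lay on the side of the low group, at 27.9, 35.3 and 17.3. The low libraries lay at 10.2 to 76.1, the other 4 high ones at -75.6 to -27.6 and KO_53 at -73.7. This component went with the length slope. Every library with a negative value had a slope of -0.33 or lower, and every other library one of -0.17 or higher.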
